A study of Homo sapiens with 8 samples.

Results

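The regions described here are the accessible-chromatin peaks of human chromosome 12 in mitotic RPE-1 cells, taken from 8 separately called ATAC-seq peak lists. All peaks whose chromosome is 12 were taken, which gave 126881 of the 1552428 peaks in the 8 lists and 126881 of the 1534462 on the autosomes. In bins of 5 Mb, 24 of 26 bins of chromosome 12 had more peaks per Mb than the median bin of the other autosomes (mean of the 8 lists). The density was high on both sides of the centromere, but ranged from 0.883 to 2.43 times that median.

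ATAC-seq uses the transposase Tn5 to insert sequencing adapters into accessible DNA. The cells were hTERT RPE-1, a telomerase-immortalised line from human retinal pigment epithelium, of the genotype Plk1-/- EGFP-Plk1as in all 8 libraries. Their only Plk1, a mitotic kinase, is thus an EGFP-tagged analog-sensitive form that the purine analog 3MB-PP1 inhibits. All cells were held in prometaphase for 16 h by 5 µM STLC, a kinesin-5 inhibitor, and mitotic cells were shaken off. They then received, still in STLC, either 0.5% DMSO or 10 µM 3MB-PP1 for 2 h, with 4 libraries in each group. The mitotic index was above 95% and each reaction used 50000 cells. The series describes the replicates as biological, and p-values measure only the spread between these 8 libraries.

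Mitotic chromosomes are compacted and largely silent, yet many promoters stay accessible to Tn5 through mitosis. RPE-1 is a near-diploid line in which a duplicated stretch of the long arm of chromosome 10 is well known, and cultures with a gained chromosome 12 occur. An extra copy of a chromosome offers the transposase more template along its whole length, whereas genes and open chromatin are spread unevenly along any chromosome. Chromosome 12 carries housekeeping and cell-cycle genes beside clusters that epithelial cells largely keep silent, such as the natural killer receptor, bitter taste receptor and olfactory receptor genes. Copy number was not measured in these libraries, and in a peak list copy number and accessibility per copy cannot be told apart.

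The promoters below show the ends of the range found on chromosome 12. CDCA3, on the short arm, encodes a trigger of mitotic entry, and E2F7, on the long arm, encodes a repressor of the cell-cycle transcription programme. Both had a peak within 1 kb of their start in all 8 lists. TAS2R7 and TAS2R10 encode bitter taste receptors and had a peak there in none. These 4 examples were chosen after their values were seen. Each sequence is the 250 bases upstream of the start on the gene's strand, which is the minus strand for all 4, from the RefSeq promoter table of GRCh38.p14. Capitals mark matches, on either strand, to 4 motifs. These are the GC box, spelled GGGCGG, the CCAAT box, spelled as its name, a binding motif of ETS factors, spelled CCGGAAG, and the TATA box, spelled as TATAAA here.
CDCA3: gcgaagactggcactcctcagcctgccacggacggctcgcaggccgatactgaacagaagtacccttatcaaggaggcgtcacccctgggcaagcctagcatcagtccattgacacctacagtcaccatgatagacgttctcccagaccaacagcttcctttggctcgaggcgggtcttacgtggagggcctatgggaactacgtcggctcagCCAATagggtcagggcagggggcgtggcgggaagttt
E2F7: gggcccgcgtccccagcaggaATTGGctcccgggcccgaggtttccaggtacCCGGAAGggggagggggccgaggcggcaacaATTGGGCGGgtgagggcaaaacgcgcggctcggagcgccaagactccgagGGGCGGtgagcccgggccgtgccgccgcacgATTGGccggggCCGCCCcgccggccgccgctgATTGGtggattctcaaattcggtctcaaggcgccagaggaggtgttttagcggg
TAS2R7: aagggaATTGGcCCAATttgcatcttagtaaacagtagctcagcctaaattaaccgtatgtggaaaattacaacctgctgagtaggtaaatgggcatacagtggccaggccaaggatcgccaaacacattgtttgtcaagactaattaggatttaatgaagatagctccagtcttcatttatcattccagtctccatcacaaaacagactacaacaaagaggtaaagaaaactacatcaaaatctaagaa
TAS2R10: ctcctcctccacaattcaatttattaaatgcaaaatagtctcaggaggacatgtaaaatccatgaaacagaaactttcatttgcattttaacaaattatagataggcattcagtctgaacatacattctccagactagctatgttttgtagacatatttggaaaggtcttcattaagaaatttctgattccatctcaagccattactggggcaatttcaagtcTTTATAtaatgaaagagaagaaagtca

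The CDCA3 window, chr12:6851287-6851536, had a GC content of 59.2% with 14 CpG dinucleotides and held 1 CCAAT box. The E2F7 window, chr12:77065570-77065819, had a GC content of 71.2% with 29 CpG dinucleotides and held 4 CCAAT boxes, 3 GC boxes and 1 ETS match, and 1 of its CCAAT boxes overlaps a GC box. The TAS2R7 window, chr12:10802628-10802877, had a GC content of 38.4% with 2 CpG dinucleotides and held 2 CCAAT boxes. The TAS2R10 window, chr12:10826359-10826608, had a GC content of 32.8%, 0 CpG dinucleotides and 1 TATA match. The sets these genes come from differed in the same direction. Median GC was 64.8% over the 545 chromosome 12 promoters with a peak in all 8 lists, 48% over the 172 with a peak in 1 to 7 lists and 35.2% over the 48 with none. A GC box was present in 72.1%, 24.4% and 14.6% of these sets, against 56.3% of all 15101 autosomal protein-coding promoters in the table. On the other autosomes it was present in 69.7% of the promoters with a peak in all 8 lists. TATA matches went the other way, at 4.04%, 23.3% and 37.5%, against 9.30% of the autosomal protein-coding promoters and 4.95% of the other autosomes' promoters called in all 8 lists. CCAAT boxes had similar shares in all sets, at 34.5%, 36.6% and 37.5%, against 34.1% and 35.9%. ETS matches were in 18.3%, 4.65% and 2.08%, against 11.9% and 16.9%. The 27305 windows of the table, which include non-coding genes, held the 4 motifs in 42.3% (GC box), 33.0% (CCAAT box), 8.82% (ETS) and 11.1% (TATA). A match describes the letters only.

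The lists held between 12096 and 20189 peaks on chromosome 12. In DMSO replicates 1 to 4 there were 12096, 13357, 15786 and 16636 peaks. In 3MB-PP1 replicates 1 to 4 there were 17501, 16857, 20189 and 14459. The longest 3 lists were thus 3MB-PP1 lists, and the groups overlapped. Over all 8 lists the density was 119 ± 19.1 peaks per Mb (SD, n = 8) on a chromosome of 133.26 Mb. Chromosome 12 ranked first of 22 autosomes in peaks per Mb in every list, followed in every list by chromosome 10 (106.9 ± 17.0) and chromosome 20 (94.4 ± 16.1). Chromosome 12 was chosen by these densities, which are therefore given as a description.

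Relative to the median of the other autosomes in the same list, chromosome 12 had 1.86, 1.90, 1.85 and 1.90 times as many peaks per Mb in DMSO replicates 1 to 4. The ratio was 2.03, 1.81, 1.76 and 1.91 in 3MB-PP1 replicates 1 to 4. The 3MB-PP1 values lay on both sides of the DMSO values and were more spread. With 1024 protein-coding genes, chromosome 12 had 7.68 genes per Mb and was number 8 of 22 in gene density. Per protein-coding gene it had 15.5 ± 2.49 peaks (SD, n = 8) and had rank 4 in every list, behind the gene-poor chromosomes 18 (20.0) and 13 (18.3) and behind chromosome 10 (19.5). The ratio per gene was 1.41, 1.43, 1.42 and 1.46 with DMSO and 1.46, 1.50, 1.40 and 1.48 with 3MB-PP1. Chromosome 12 was therefore high by both denominators, and first only per Mb.

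**Figure D1:**
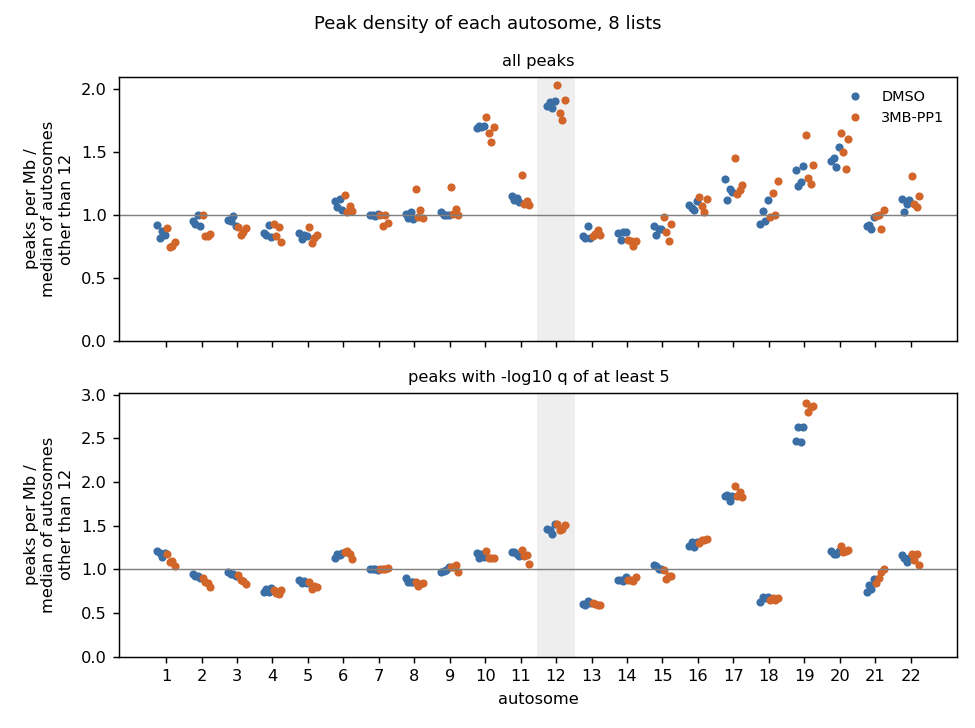
Peaks per Mb of each autosome divided by the median of the autosomes other than 12, for all peaks (top) and for peaks with a −log10 q of at least 5 (bottom). Each point is 1 list (blue DMSO, orange 3MB-PP1) and the grey band marks chromosome 12, which lies between 1.76 and 2.03 in the top panel and behind chromosomes 19 and 17 in the bottom panel.

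The ratio depended on how strong the peaks were. Each list holds peaks with a −log10 q of at least 1 as the authors' caller gave it, and weak peaks made up most of each list. On chromosome 12, 40.5% of peaks had a −log10 q between 1 and 1.5 and 32.7% between 1.5 and 2. The density ratio was 1.82 ± 0.170 (SD, n = 8) for the weakest class, 1.96 ± 0.0852 from 1.5 to 2 and 2.21 ± 0.207 from 2 to 3. It was 1.81 ± 0.130 from 3 to 5, and lowest, at 1.28 ± 0.0485, from 5 to 10. It was 1.46 ± 0.168 from 10 to 20 and 2.00 ± 0.211 at 20 and over. The ratio was thus above 1 in every class and did not move in 1 direction with strength. Counting only peaks with a −log10 q of at least 5, chromosome 12 had 5.65 ± 1.56 peaks per Mb (SD, n = 8). It then had rank 3 in every list, behind the gene-dense chromosomes 19 (10.3) and 17 (7.13).

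**Figure D2:**
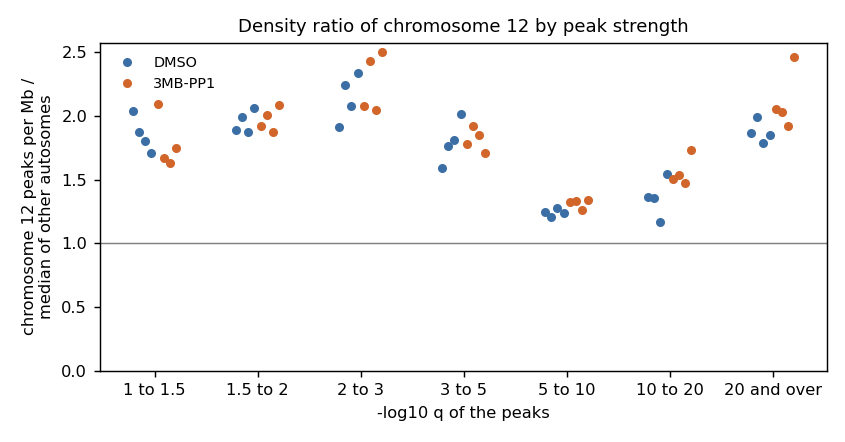
Peaks per Mb on chromosome 12 divided by the median of the other autosomes, by class of −log10 q. Each point is 1 list (blue DMSO, orange 3MB-PP1), and the line marks a ratio of 1, below all points. The class from 5 to 10 has the lowest mean, 1.28.

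Split by position, the excess was smallest at gene starts. Peaks within 1 kb of a protein-coding gene start were 1.25 ± 0.0355 times as dense as the median of 20 other autosomes (SD, n = 8), and chromosome 12 ranked between 4 and 8 of 21. Other peaks inside genes were 1.95 ± 0.0666 times as dense, and peaks outside genes 1.89 ± 0.0480 times, both first in every list. Gene-start peaks made up 3.92% ± 0.490 of chromosome 12 peaks, against 6.23% ± 0.693 on the other autosomes. Gene starts come from a promoter table that covers 765 of the 1024 protein-coding genes of chromosome 12 and 21 autosomes, since chromosome 8 was not used here for gene starts.

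Along the chromosome, 26 of the 27 bins of 5 Mb were used. The bin from 35 to 40 Mb, which holds the centromere, had peaks in only 26 of its 50 windows of 100 kb and was left out. Of the 26 bins, 24 (92.3%) exceeded the median bin of the other autosomes by their mean, against 53.3% of all 537 autosomal bins, and 22 did so in each of the 8 lists. Among peaks with a −log10 q of at least 5 the share of bins above the median was lower, 71.2% ± 2.22 with DMSO and 71.2% ± 2.22 with 3MB-PP1 (SD, n = 4 each). Counting all peaks again, only chromosome 20 had a larger share of bins above the median than chromosome 12, with 12 of 12 bins. Close behind chromosome 12 were chromosomes 10 (23 of 25, 92%), 19 (10 of 11, 90.9%) and 22 (7 of 8, 87.5%). A high share of such bins was thus not particular to chromosome 12. The median bin of chromosome 12 was at 1.88 times the median of the other autosomes, the highest of 22. Its coefficient of variation among bins was 0.259, and 19 autosomes had a higher one. By comparison, chromosome 10, of similar length, had a median of 1.66 and a coefficient of variation of 0.427.

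The 5 densest bins lay at both ends of the chromosome. The bin from 5 to 10 Mb was at 2.43 ± 0.128 times the autosomal median (SD, n = 8), with 123, 142, 158 and 178 peaks per Mb in DMSO replicates 1 to 4 and 181, 179, 199 and 162 in 3MB-PP1 replicates 1 to 4. The bin from 10 to 15 Mb was at 2.38 ± 0.186, that from 125 to 130 Mb at 2.34 ± 0.146, that from 105 to 110 Mb at 2.32 ± 0.176 and that from 0 to 5 Mb at 2.29 ± 0.155. These neighbours in the order differ by less than their spread. In the densest bin the 3MB-PP1 lists had more peaks per Mb than the DMSO lists except for replicate 4, which lay within the DMSO range. Relative to the autosomal median of the same list the groups were alike there. They were at 2.41 ± 0.0977 with DMSO and 2.45 ± 0.167 with 3MB-PP1 (SD, n = 4 each).

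The lowest bins were at the centromere and in the middle of the long arm. The bin from 40 to 45 Mb was at 0.883 ± 0.249 (SD, n = 8), with 51.8, 40.4, 63.2 and 57.0 peaks per Mb in DMSO replicates 1 to 4 and 82.6, 50.8, 113.2 and 33.2 in 3MB-PP1 replicates 1 to 4. The bin from 70 to 75 Mb was at 0.992 ± 0.110, with 44.8, 58.4, 58.0 and 68.0 peaks per Mb with DMSO and 78.0, 77.0, 104 and 59.4 with 3MB-PP1. These 2 were the bins below the autosomal median by their mean. The bins from 80 to 85 Mb (1.13 ± 0.102), 85 to 90 Mb (1.14 ± 0.127) and 60 to 65 Mb (1.17 ± 0.123) came next. Between 70 and 90 Mb all 4 bins lay between 0.992 and 1.21, whereas the 7 bins from 100 Mb to the end lay between 1.95 and 2.34.

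**Figure D3:**
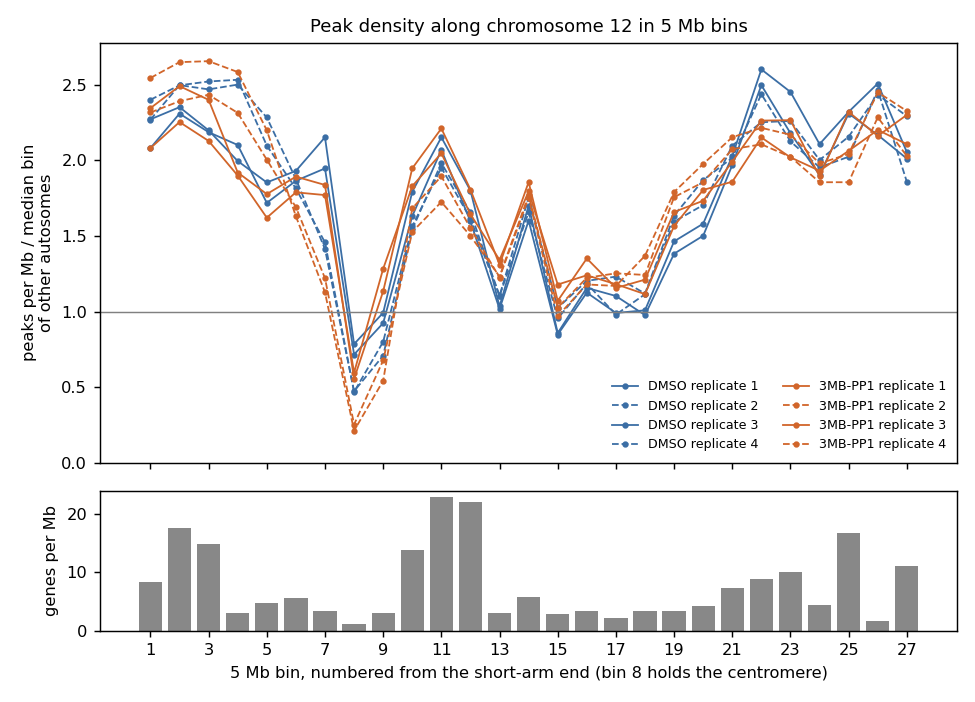
Top, peaks per Mb in each 5 Mb bin of chromosome 12 divided by the median bin of the other autosomes, 1 line per list (blue DMSO, orange 3MB-PP1, solid for odd and dashed for even replicate numbers). Bottom, protein-coding genes per Mb in the same bins. The lines are highest near both ends, fall to the centromeric bin 8 and are low again over bins 15 to 18, where few genes lie.

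Gene content followed part of this profile. Over the 26 bins the correlation of mean relative density with genes per Mb was 0.441 (Pearson) and 0.513 (Spearman), a description over bins that share their libraries and differ in base composition. A line of log2 peak density on log2 gene density, fitted in each list to the 511 bins of the other autosomes, was then used as the expectation. All 26 bins of chromosome 12 had more peaks than this expectation by their mean, against 54.9% of the 537 autosomal bins. Chromosome 12 was chosen for its peak density, so this and the bins above the autosomal median are descriptions. The median excess was 0.90 on the log2 scale, the highest of 22 autosomes, before chromosomes 10 (0.74) and 20 (0.48). Its SD among bins was 0.433 on the log2 scale, and 17 autosomes had a higher one. The bin from 125 to 130 Mb, with 8 protein-coding genes, was farthest above its expectation, by 2.11 on the log2 scale.

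Chromosome 10 had another profile. Its 7 bins from 0 to 35 Mb lay between 1.02 and 1.66 times the autosomal median, and its bins from 50 to 60 Mb at 0.255 and 0.301. Its 9 bins from 90 Mb to the end lay between 2.19 and 2.60. The short arm of chromosome 12 had 7 bins from 0 to 35 Mb between 1.62 and 2.43. Chromosome 12 was thus high on both arms and chromosome 10 mainly on the distal long arm. On chromosome 11, whose median bin was at 1.08, 15 of 27 bins exceeded the autosomal median.

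The balance of the arms was measured as peaks per Mb from 40 Mb to the end over peaks per Mb from 0 to 35 Mb. The ratio was 0.782 ± 0.0307 in the DMSO lists and 0.820 ± 0.0476 in the 3MB-PP1 lists (SD, n = 4 each), so the short arm was the denser in all 8 lists when all peaks were counted. Among peaks with a −log10 q of at least 5 the balance turned, to 1.07 ± 0.0507 with DMSO and 1.05 ± 0.0667 with 3MB-PP1, with a range of 0.967 to 1.12 over the 8 lists. Bins near the centromere and some farther away separated odd from even replicate numbers in both groups, a split seen in the data that the labels do not describe. From 30 to 35 Mb DMSO replicates 1 to 4 had 112.4, 80.6, 133.2 and 103.8 peaks per Mb and 3MB-PP1 replicates 1 to 4 had 133.8, 91.6, 156.2 and 69.0. Relative densities there were 1.93 in the odd and 1.31 in the even numbers, without overlap. From 15 to 20 Mb the order was the opposite, at 1.98 in the odd and 2.48 in the even numbers, also without overlap. The same held from 10 to 15 Mb (2.23 and 2.52) and from 20 to 25 Mb (1.74 and 2.15). From 40 to 45 Mb odd and even numbers were at 1.08 and 0.682, and from 50 to 55 Mb at 2.12 and 1.89, each without overlap. The part of this split in the treatment comparisons is given below as differences within odd and within even numbers.

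The height of peaks is a measure other than their number. At protein-coding gene starts with a peak in all 8 lists, the median pileup on chromosome 12 was divided by that on the other autosomes of the same list. Pileup is the fragment coverage of a peak as deposited. The ratio was 1.35, 1.26, 1.30 and 1.29 in DMSO replicates 1 to 4 and 1.28, 1.27, 1.29 and 1.28 in 3MB-PP1 replicates 1 to 4, over 545 genes. All 8 lists were above 1 and close together, and the groups overlapped. The mean, 1.29 ± 0.0256 (SD, n = 8), was the highest of 21 autosomes, but that of chromosome 21 was within the spread at 1.27, over 85 genes. Chromosome 10 was at 1.16 and chromosome 11 at 1.00.

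By segment, the pileup ratio was 1.20 ± 0.0293 on the short-arm side to 35 Mb (126 genes) and 1.32 ± 0.0376 from 40 Mb on (415 genes, both SD, n = 8). From 40 to 70 Mb it was 1.27, from 70 to 100 Mb 1.32 and from 100 Mb to the end 1.39. The segment from 70 to 100 Mb is not low in peak number throughout. Its bins from 90 to 95 Mb and 95 to 100 Mb had 1.61 and 1.75 times the autosomal median of peak density. From 70 to 90 Mb, where peak number was low, only 75 to 80 Mb and 85 to 90 Mb had at least 10 genes with a start peak in all 8 lists. Their pileup ratios were 1.92 and 1.24, so in these bins gene-start peaks were not low in height. Of the 21 bins with at least 10 such genes, 17 were above 1 in all 8 lists, against 34.2% of 365 autosomal bins. The highest was the bin from 75 to 80 Mb, which holds E2F7, at 1.92 ± 0.149. The lowest was the bin from 40 to 45 Mb at 0.685 ± 0.0440, and with the bin from 20 to 25 Mb (0.908 ± 0.0590) it was below 1 in all 8 lists. The SD among bins was 0.284 on chromosome 12 and 0.259 on the other autosomes.

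**Figure D4:**
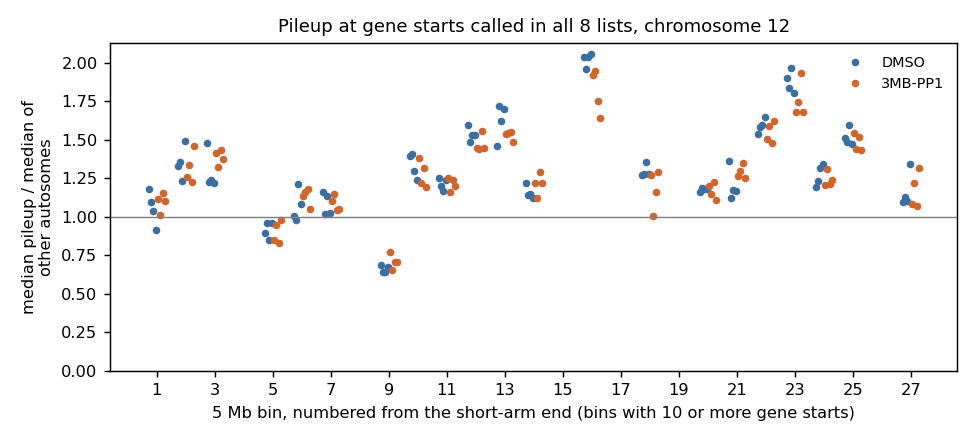
Median pileup of gene-start peaks called in all 8 lists, per 5 Mb bin of chromosome 12 with at least 10 such genes, divided by the median over the other autosomes in the same list (blue DMSO, orange 3MB-PP1). Bin 16 (75 to 80 Mb) is highest and bin 9 (40 to 45 Mb) lowest, and 17 of 21 bins lie above 1 in all 8 lists.

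The background against which peaks were called was also higher on chromosome 12. Pileup divided by fold enrichment gives the background that the deposited columns imply. Its median on chromosome 12 was 1.09 ± 0.0258 times that on the other autosomes with DMSO and 1.11 ± 0.0128 times with 3MB-PP1 (both SD, n = 4), and above 1 in all 8 lists. By this median chromosome 12 ranked between 6 and 8 of 22 autosomes. Chromosomes 19, 22, 17 and 10 were higher in every list. Per bin the background ranged from 1.01 to 2.10 times the lowest background of the list. Its correlation with genes per Mb was 0.556 (Pearson) and 0.721 (Spearman) over 26 bins. Bins with more genes thus tended to have a higher background, as they had more peaks. Median peak width on chromosome 12 was 1.01 ± 0.0220 times that elsewhere with DMSO and 1.02 ± 0.00669 times with 3MB-PP1.

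Merging the 8 lists gave 43284 regions on chromosome 12. Of these 45.4% were called in a single list, against 52.3% on the other autosomes and 45.8% on chromosome 10. Regions called in all 8 lists numbered 3182, or 7.35%, against 6.11% on the other autosomes and 6.2% of all autosomal regions. On chromosome 10 the share was 7.43%, so chromosome 12 was not particular in this. The order of chromosome 12 and the other autosomes depended on the threshold. It turned at a −log10 q of at least 2, to 6.32% against 8.14% on the other autosomes, and with peaks of at least 300 bp the shares were 7.31% and 7.26%. The 10 highest-ranked of these by −log10 p reached a mean percentile of 99.94 or more within the lists and kept their calls in 8 lists at a −log10 q of at least 5.

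First was chr12:124939119-124940959, which overlaps the transfer RNA genes TRD-GTC2-10 and TRA-TGC4-1, with a −log10 q between 60.0 and 172. Transfer RNA genes are transcribed by RNA polymerase III, and the fifth region, chr12:106357454-106358534, lay at the start of POLR3B, which encodes a subunit of that polymerase. The second, chr12:120316958-120318199, lay between genes, 3709 bp from SIRT4. The third, chr12:8242320-8244159, overlapped the pseudogene FAM86FP and the long non-coding RNA gene LINC02449; FAM86 sequences occur in several similar copies, so its position is uncertain. The region chr12:123232520-123233922 held the starts of MPHOSPH9 and of MTRFR, a mitochondrial translation release factor. Another 2 regions near the long-arm end lay at zinc finger genes, chr12:133036844-133038013 at ZNF84 and chr12:133129731-133130938 at ZNF891 and ZNF10. The remaining 3 were chr12:50111107-50112711 at COX14, a cytochrome c oxidase assembly factor, chr12:26937747-26939529 at INTS13 and FGFR1OP2, and chr12:110123800-110124951 at IFT81, an intraflagellar transport protein. Of the 10 regions 7 thus held a protein-coding gene start.

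Of the 765 protein-coding genes with a start, 545 (71.2%) had a peak within 1 kb in all 8 lists, against 60.5% on the other autosomes and 61.0% overall. Only 48 (6.28%) had a peak in no list, against 11.2% on the other autosomes and 10.9% overall. The share with a peak in all 8 lists was higher from each segment to the next along the chromosome. It was 60.6% of 208 genes from 0 to 35 Mb, 68.3% of 252 from 40 to 70 Mb, 79.5% of 78 from 70 to 100 Mb and 81.5% of 222 from there to the end.

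Housekeeping genes had start peaks almost without exception. Of 25 listed, 21 had a start in the table. Of these 19 (90.5%) had a peak in all 8 lists, against 71.2% of all chromosome 12 starts, and the other 2 in some. TUBA1B, an alpha-tubulin, ranked at the percentile 99.8 ± 0.0790 of its list (SD, n = 8), and its −log10 q lay between 25.9 and 67.3. RAN, the GTPase of nuclear transport and spindle assembly, was at 99.3 ± 0.301. The lowest were PFDN5, a prefoldin subunit, with a peak in 7 lists at 62.5 ± 21.3, and the ribosomal protein gene RPL6, called in 2 lists. The start of RPL6 in the table lies inside the gene and not at its outer end.

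Cell-cycle genes were similar, with 18 of 19 (94.7%) called in all 8 lists, against the same 71.2%, and none in only some. The −log10 q at CDCA3, whose promoter is shown above, was 66.4, 58.3, 77.8 and 43.2 in DMSO replicates 1 to 4 and 31.4, 29.1, 40.8 and 22.9 in 3MB-PP1 replicates 1 to 4. These values depend on the depth of each list, which is unknown, and are comparable only as ranks within it. By rank CDCA3 was at the percentile 99.8 ± 0.0764 (SD, n = 8), and TIMELESS, a component of the replication fork, at 99.8 ± 0.174. E2F7 was at 99.7 ± 0.0937. The lowest of those called were ESPL1, which encodes separase, at 79.1 ± 20.5, and ANAPC7, a subunit of the anaphase-promoting complex, at 92.6 ± 3.17. GAS2L3, which encodes a cytoskeletal linker protein, had a peak in none of the lists at its table start. That start lies inside the gene, so its outer end was not examined.

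Of 11 genes of the 12q13-q15 segment that is amplified in some tumours, 9 (81.8%) had a start peak in all 8 lists, against 71.2% of all chromosome 12 starts and 68.3% of those from 40 to 70 Mb. CDK4, the cyclin D kinase, was at the percentile 99.5 ± 0.174 (SD, n = 8) and YEATS4, a chromatin reader, at 99.0 ± 0.165. The lowest were the Wnt inhibitor WIF1 at 59.8 ± 28.7 and TSPAN31 at 62.2 ± 21.8, the latter called in 7 lists. AGAP2 was called in 1 list.

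All 3 pigment epithelium genes with a start were called in all 8 lists, a small set beside the 71.2% of all chromosome 12 starts. They were BHLHE41, a circadian repressor, at the percentile 97.7 ± 0.526, RDH5, the retinol dehydrogenase of the visual cycle, at 97.1 ± 0.949, and KITLG, the KIT ligand, at 97.1 ± 0.683 (all SD, n = 8). Of 5 extracellular matrix and related genes 3 were called in all 8 lists, near that share. EMP1, a membrane protein, was at 99.6 ± 0.173 and IGFBP6 at 97.9 ± 0.440, while IGF1 was called in 7 lists and EPYC in none.

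Type II keratins encode intermediate filament proteins of epithelia and hair. Of 14 with a start, 2 (14.3%) were called in all 8 lists, against 71.2% of all chromosome 12 starts, and 12 in only some. KRT8, the keratin of simple epithelia, had a −log10 q of 9.92, 8.94, 7.84 and 4.17 in DMSO replicates 1 to 4 and 4.44, 3.43, 2.89 and 2.63 in 3MB-PP1 replicates 1 to 4. Its percentile was 93.4 ± 1.39 (SD, n = 8), above KRT4 at 68.2 ± 16.0. The start of KRT8 in the table, like that of RPL6, lies inside the gene and not at its outer end. The lowest were KRT74 at 10.3 ± 2.91, called in 2 lists, and KRT2, called in 1. HOXC4 and HOXC5 share a start in the table and were called in 4 lists.

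Receptor gene clusters had few start peaks in all 8 lists, whereas 71.2% of all chromosome 12 starts had one. Of 11 natural killer complex genes 3 were called in all 8 lists, 5 in some and 3 in none, among them KLRB1. KLRG1 stood apart at the percentile 99.9 ± 0.0435, but the same peak covers the start of M6PR, a mannose 6-phosphate receptor that all cells use. The other genes called in all 8 were CLEC12B at 65.5 ± 14.5 and KLRC1 at 71.5 ± 17.8. Of 10 bitter taste receptor genes 9, TAS2R7 and TAS2R10 among them, were called in none, and TAS2R9 was called in 3. Of 15 olfactory receptor genes 2 (OR10A7 and OR10P1) were called in all 8, 6 in some and 7 in none. Of 4 genes of the 12p pluripotency list SOX5 was called in all 8, GDF3 in 5, NANOG in 1 and DPPA3 in none.

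**Figure D5:**
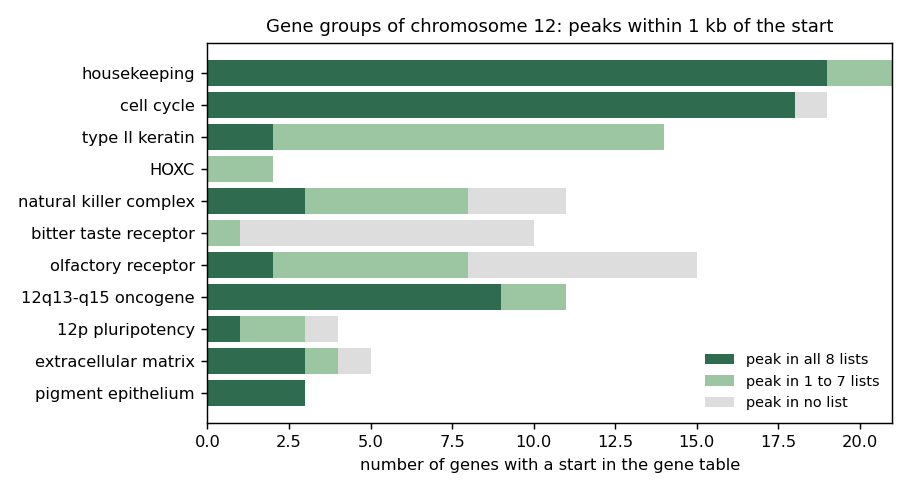
Number of genes per group of chromosome 12 with a peak within 1 kb of their start in all 8 lists (dark green), in 1 to 7 lists (light green) or in none (grey), out of those with a start in the table. Housekeeping and cell-cycle genes are almost all dark (19 of 21 and 18 of 19), and 9 of 10 bitter taste receptor genes are grey.

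High-ranking gene starts were found in dense and in sparse bins. Over the whole of chromosome 12, 71.2% of starts had a peak in all 8 lists. In the bin from 5 to 10 Mb, 38 of 65 genes with a start had a peak in all 8 lists, led by LPCAT3, a phospholipid acyltransferase (percentile 99.9). In the bin from 10 to 15 Mb, 24 of 48 did, led by ATF7IP, a partner of the H3K9 methyltransferase SETDB1 (99.9), and MAGOHB, a subunit of the exon junction complex (99.8). In the bin from 125 to 130 Mb only 6 genes had a start, 5 of them called in all 8 lists, and the highest was AACS at 94.9. In the sparse bin from 40 to 45 Mb, 11 of 14 genes were called in all 8 lists, with TWF1, an actin monomer binding protein, at 98.2, IRAK4 at 96.4 and LRRK2 at 96.1. The small GTPase gene RAB21 led the bin from 70 to 75 Mb at 99.3, where ZFC3H1 and THAP2 share a peak at 99.2. TMTC2 led the bin from 80 to 85 Mb at 99.3, where CCDC59 and METTL25 share one at 98.2. The bin from 125 to 130 Mb thus combined 1 of the highest peak densities with the lowest-ranked leading gene start of these 6 bins.

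The effect of Plk1 inhibition was tested on 6 measures of chromosome 12, by an exact two-sided permutation test in which the 8 libraries can be divided in 70 ways. The smallest p this allows is 0.0286, and p-values were adjusted by Benjamini-Hochberg over the 6. The groups overlapped in all 6, and none was past 0.05. The share of autosomal peaks on chromosome 12 was 8.11%, 8.50%, 8.05% and 8.41% in DMSO replicates 1 to 4 and 8.27%, 8.33%, 8.06% and 8.52% in 3MB-PP1 replicates 1 to 4. The difference was 0.0292 percentage points, higher in 3 of 4 same-numbered pairs (exact permutation p = 0.857, adjusted p = 0.857). It was 0.0850 points in the odd and −0.0267 points in the even numbers. With 2 libraries a group, the smallest two-sided p within odd or even numbers is 0.333.

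The share of autosomal covered length was 8.09% ± 0.352 with DMSO and 8.29% ± 0.227 with 3MB-PP1 (SD, n = 4 each), a difference within the spread (difference 0.209 points, exact permutation p = 0.343, adjusted p = 0.411; odd 0.336, even 0.0825; higher in 4 of 4 pairs). The long-arm over short-arm density differed by 0.0383 (exact permutation p = 0.2, adjusted p = 0.4; odd 0.0547, even 0.0220; higher in 4 of 4 pairs). The share of bins above the autosomal median was 90.4% ± 3.85 with DMSO and 97.1% ± 3.68 with 3MB-PP1 (SD, n = 4 each). That difference of 6.73 points, 1.92 of them in the even and 11.5 in the odd numbers, had an exact permutation p of 0.0857 and an adjusted p of 0.343, and was positive in 3 of 4 pairs. The width ratio differed by 0.0158 (exact permutation p = 0.286, adjusted p = 0.411; odd 0.0306, even 0.00106; 3 of 4 pairs). The background ratio differed by 0.0280 (exact permutation p = 0.114, adjusted p = 0.343; odd 0.0383, even 0.0176; 4 of 4 pairs).

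Within chromosome 12, the share of a list's autosomal peaks in each bin was compared by limma across all 537 bins. Of the 26 bins 1 was higher with 3MB-PP1 and 0 lower at an adjusted p of at most 0.05, against 3.54% higher and 4.1% lower of all autosomal bins. This was the bin from 60 to 65 Mb. It had 54.0, 63.0, 69.6 and 78.6 peaks per Mb in DMSO replicates 1 to 4 and 95.4, 92.4, 118 and 75 in 3MB-PP1 replicates 1 to 4. The replicate numbered 4 was the lowest with 3MB-PP1 and the highest with DMSO, and there the groups overlapped in raw density. As a share of the list the bin rose by 0.27 ± 0.0653 on the log2 scale (SE, limma adjusted p = 0.0440). The call was kept without DMSO replicate 4 and lost without any other single library, at a −log10 q of at least 2 or 5, with lists of equal length, and with peaks of at least 300 bp. With the replicate number as a block in limma 3 of the 26 bins passed. They were the bins from 30 to 35 Mb (−0.23, adjusted p = 0.0471), 60 to 65 Mb (0.27, adjusted p = 0.0413) and 85 to 90 Mb (0.23, adjusted p = 0.0393). Of all 537 autosomal bins 63 were higher and 37 lower with the block, together 18.6%, so calls were not particular to chromosome 12.

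The bin from 60 to 65 Mb holds 12 protein-coding genes with a start. Of these 11 had a start peak in all 8 lists, against 71.2% of all chromosome 12 starts. TBK1, a kinase of innate immune signalling, was highest at the percentile 99.9 ± 0.0689 (SD, n = 8), followed by KICS2, a subunit of the KICSTOR complex of nutrient sensing, at 99.6 ± 0.158. XPOT, which exports transfer RNA from the nucleus, was at 99.2 ± 0.208, and USP15, a deubiquitinase, at 98.3 ± 0.214. C12orf56 was called in 2 DMSO and 3 3MB-PP1 lists. The gene starts of this bin were thus called in both groups alike.

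Regions called in 4 lists of 1 group and in 0 of the other were few. On chromosome 12, 54 regions (0.125%) were called only with DMSO, against 0.12% of all autosomal regions, and 80 (0.185%) only with 3MB-PP1, against 0.149%. The balance turned with the threshold, on chromosome 12 as over all autosomes. With lists of equal length the counts were 71 (0.2%) and 41 (0.116%), against 0.215% and 0.0969% of all autosomal regions. With peaks of at least 300 bp they were 73 (0.300%) and 35 (0.144%), against 0.305% and 0.102%. At a −log10 q of at least 5 they were 16 (1.25%) and 0, against 1.15% and 0.0152%. No protein-coding gene start of chromosome 12 was called in 4 lists of 1 group and 0 of the other, against 0.0397% (DMSO only) and 0.0927% (3MB-PP1 only) of all autosomal starts.

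The 3 highest-ranked regions in each direction were weak peaks away from gene starts. With DMSO only, chr12:101157670-101158303 lay inside SLC5A8, a monocarboxylate transporter gene, with a −log10 q of 5.36, 1.84, 3.30 and 2.12 in replicates 1 to 4. The others were chr12:26101444-26102237, 17793 bp from BHLHE41, and chr12:18165000-18166078, 74807 bp from RERGL. With 3MB-PP1 only, chr12:95907566-95908430 lay inside CCDC38, a coiled-coil protein gene, with a −log10 q of 2.21, 3.71, 1.85 and 2.23 in replicates 1 to 4. The others were chr12:62445298-62446674, 20152 bp from MON2, and chr12:100010498-100011479, 25562 bp from ANKS1B. At a −log10 q of at least 2 none of the 6 was still called in all 4 lists of its group. The absence of a call in the other group need not be absence of signal, which was not measured there.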

How the data were processed

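Each of the 8 libraries has 1 deposited peak list, called per library. The lists name no settings. The submitters' processing notes name hg38, MACS2 and DESeq2 without versions; the aligner, read filters and any Tn5 shift are not given in the sources used here. Per line the deposited columns are a chromosome, start (from 1), end, length, pileup (a coverage signal), −log10 p, fold enrichment (a ratio to background) and −log10 q, the authors' own values, used only within a list. Read depth is unknown, so no interval that needs it is given, and how peaks were called could change their number and width.

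Genes and starts came from RefSeq tables of GRCh38.p14. The planned gene-start measure used the starts in its promoter table, which covers 15101 of 19126 autosomal protein-coding genes. Bins of 5 Mb were kept where at least 80% of 100 kb windows held a peak in any list. No genome was used, so GC content of peaks, mappability and assembly gaps were not corrected for.

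Measures per library were compared by exact permutation. Bins were fitted with limma 3.58.1 (R 4.3.3) on log2(percent of the list's autosomal peaks + 0.001). Figures were drawn with matplotlib 3.10.9, and the rest was computed in Python 3.11.15 with scipy 1.17.1, pandas 2.3.3 and numpy 2.4.6. In data simulated over 537 bins for the treatment difference, limma recovered 18, 41 and 48 of 50 bins shifted by 0.3, 0.6 and 1 on the log2 scale, with 0, 1 and 1 false calls. The simulated noise was independent between bins and libraries. It lacked the odd and even split of the real lists, so these rates need not hold for them.

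No pair of the 28 pairs of lists shared more than 0.0541% identical peaks, so all 8 counted as separate. Deviations of same-numbered libraries from their group means correlated at 0.401 to 0.736 over bins in all 4 pairs. Between different numbers the correlations ran from −0.664 to 0.659, positive where both were odd or both even and negative otherwise. Some of these exceeded the lowest same-numbered value, so same numbers were not set apart beyond the odd and even split. The main tests did not use pairing. Pairs by the titles' numbers served only for the counts of same-signed pairs and for the replicate block.

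Named genes were, per list, the 2 highest and 2 lowest by the mean, over lists, of the percentile of the best peak within 1 kb of the start (rank by −log10 p, ties by fold); per named bin the 3 highest; the 10 highest regions in all 8 lists; and the 3 highest regions per direction called in 1 group only. Genes named beside these were chosen after their values were seen. The members and all gene lists were chosen with earlier results of these data known. Alternatives were −log10 q of at least 2 or 5, width of at least 300 bp, equal list length (149172 peaks), bins of 2 and 10 Mb, a pseudocount of 0.01, no bin filter, density relative to genes, odd or even numbers, each library left out, and the replicate block. The pileup at gene starts, the classes by strength and the alternatives for ratios, regions and gene calls were added after the data were seen.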

Additional observations from a re-analysis of the deposited data

Results flagged for a closer look

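The share of 5 Mb bins of chromosome 12 above the autosomal median was 96.2% in DMSO replicate 2 and 88.5% in each of the other 3 DMSO lists, so that library stood apart from its group. Of 18 combinations of group and measure examined, this was the only 1 with a library so far from the others, and chance marks about 1 in 20. With 26 bins the measure moves in steps of single bins, and the other 3 lists are tied.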

How the results depend on the processing

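None of the 6 treatment differences reached an exact permutation p of 0.05 under any alternative run. The difference in peak share turned to −0.0233 without DMSO replicate 1, −0.0441 without DMSO replicate 3, −0.0463 without 3MB-PP1 replicate 4 and −0.0267 in even numbers, and ranged from −0.0463 to 0.108 when single libraries were left out. The arm ratio's difference was −0.000304 at a −log10 q of at least 2 and −0.0169 at 5, the background ratio's −0.00145 at 2, and that of the share of bins 0 at 5 and −0.962 relative to gene density. Leaving out single libraries gave 0.0195 to 0.0546 for the arm ratio, 0.108 to 0.339 for covered length, 5.77 to 8.65 for bins, 0.00888 to 0.0241 for width and 0.0210 to 0.0391 for background. Without 1 library the smallest possible p is 0.0571, and with the replicate block 0.125, so these fits cannot pass.

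The density ratio per Mb was 1.47 at a −log10 q of at least 5 (1.86 to 1.90 without single libraries). Per gene it was 1.53 at 2, 1.15 at 5 and 1.48 with peaks of at least 300 bp (1.44 to 1.45). Bins called by limma numbered 0 at 2 and at 5, with equal lengths, at 300 bp and in 10 Mb bins, 0 to 1 without single libraries and 3 with the replicate block, which changed no call of the per-library measures. Regions called only with DMSO numbered 30 at 2 (0.207%, against 0.2155% of all autosomal regions) and 16 at 5. Those only with 3MB-PP1 numbered 1 at 2 (0.0069%, against 0.0219%), 0 at 5, 35 at 300 bp and 41 with equal lengths. The cause of these changes was not tested. A set of 129 genes held all members of the gene lists with a start and the genes named for the densest and sparsest bins. Of these 74 were called in all 8 lists, and 64, 51, 71 and 71 at 2, at 5, at 300 bp and with equal lengths.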
